A study of Homo sapiens with 5 samples.

Results

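The MYC and MAX network was examined in HEK293T cells, an established line derived from human embryonic kidney and transformed with viral genes. Its 9 genes were MYC, MYCN, MAX, MXD1, MXI1, MXD3, MXD4, MNT and MLX, out of 19716 genes with a read in at least 1 library. They were chosen by gene symbol, after MYC had been seen to be lower in every dCas9 fusion library than in the pUC19 control library. The values against pUC19 therefore chose the genes, and are given below as a description without a test.

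Poly(A) RNA was sequenced in 5 libraries, 1 per group. The control cells received pUC19, a cloning plasmid with neither dCas9 nor sgRNA, and the other 4 groups received 5 sgRNAs against the uPA promoter (gene symbol PLAU) together with dCas9-BFP-EGFP, dCas9-BFP-DNMT1, dCas9-BFP-DNMT3A or dCas9-BFP-DNMT3B. dCas9 is a Cas9 that binds DNA without cutting it, and BFP is a blue fluorescent protein used for sorting. The last part of each fusion was EGFP, without methyltransferase activity, or the catalytic domain of a DNA methyltransferase. The paper found raised uPA promoter methylation with the DNMT3A and DNMT3B fusions but not with the DNMT1 or EGFP fusion. All groups were transiently transfected with 1 ug of plasmid in total and collected 48 h later, and the labels describe all of them as sorted for BFP, a protein that pUC19 does not encode. With 1 library per group there was no replicate check, and the fusion, the sgRNAs and the sort cannot be told apart in a comparison with pUC19.

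MYC is a transcription factor of the basic helix-loop-helix leucine zipper family that binds DNA as a heterodimer with MAX, most tightly at the palindromic E-box CACGTG. MYC and MAX dimers mostly activate genes of growth, ribosome production and metabolism, and MYC RNA and protein are both short-lived. The MXD proteins, MXI1 and MNT also pair with MAX, bind the same motif and recruit SIN3 and histone deacetylases, so that they oppose MYC. MLX pairs with some of these repressors and with the glucose-responsive Mondo proteins.

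The libraries held 26250000 to 36140000 reads assigned to genes (to the nearest 10000), so that 3 reads, taken as the smallest amount a library could show, corresponded to 0.083 to 0.114 RPM (reads scaled to a common library total). PLAU, the targeted gene, had 106 reads in the pUC19 library and 1 to 6 reads in the fusion libraries. Genes that HEK293T cells express were present in all 5 libraries, with KRT18 at 90.0 to 120 TPM (reads per gene length, scaled to a common total) and PAX2 at 6.08 to 7.72 TPM. The neurofilament gene NEFM was at 193 TPM in pUC19 and at 34.3 to 60.2 TPM in the fusions. The 7 markers of other cell types summed to 4.74 to 9.25 TPM per library, of which COL1A1 made up 3.87 to 7.97 TPM, and CD3E and CDH5 were at 0.

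MYC was the highest of the 9 genes in the pUC19 library and the second highest, below MAX, in each fusion library. It lies on chromosome 8 (GRCh37, 128747680 to 128755197, plus strand). Its level was 387 TPM in pUC19, 75.5 TPM with the EGFP fusion, 88.2 TPM with the DNMT1 fusion, 73.8 TPM with the DNMT3A fusion and 65.5 TPM with the DNMT3B fusion. These levels came from 14673, 2028, 2597, 2236 and 1754 reads in the same order. The 4 fusion libraries lay close together and far below the control library. MYC was thus 4.38 to 5.90 times lower in the fusions, with log2 ratios to pUC19 of -2.36 (95% interval -2.43 to -2.29) for EGFP, -2.13 (-2.19 to -2.07) for DNMT1, -2.39 (-2.46 to -2.33) for DNMT3A and -2.56 (-2.64 to -2.49) for DNMT3B. All ratios are of TPM + 0.1, and the intervals, exact for the read counts, cover counting error only. In a bulk sample, fewer cells that express a gene and less RNA of it per cell cannot be told apart.

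Among the 13906 genes with a mean of at least 1 TPM, MYC stood at percentile 97.5 of level in pUC19 and between percentiles 78.7 and 86.3 in the fusions. Between 32 and 68 of these genes had a lower ratio to pUC19 than MYC, depending on the fusion. Reads covered 84.3% to 88.0% of the MYC transcript in the 5 libraries, a share that depends little on level at these read counts.

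The EGFP fusion, which has no methyltransferase domain, lay within the range of the DNMT1, DNMT3A and DNMT3B fusions. Against the EGFP fusion, the log2 ratio of MYC was 0.22 (0.14 to 0.31) for DNMT1, -0.03 (-0.12 to 0.05) for DNMT3A and -0.21 (-0.30 to -0.11) for DNMT3B. The DNMT1 library was thus slightly above the EGFP library and the DNMT3B library slightly below it, while the interval for DNMT3A included 0. MYC ranged 1.35-fold over the 4 fusions.

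**Figure D1:**
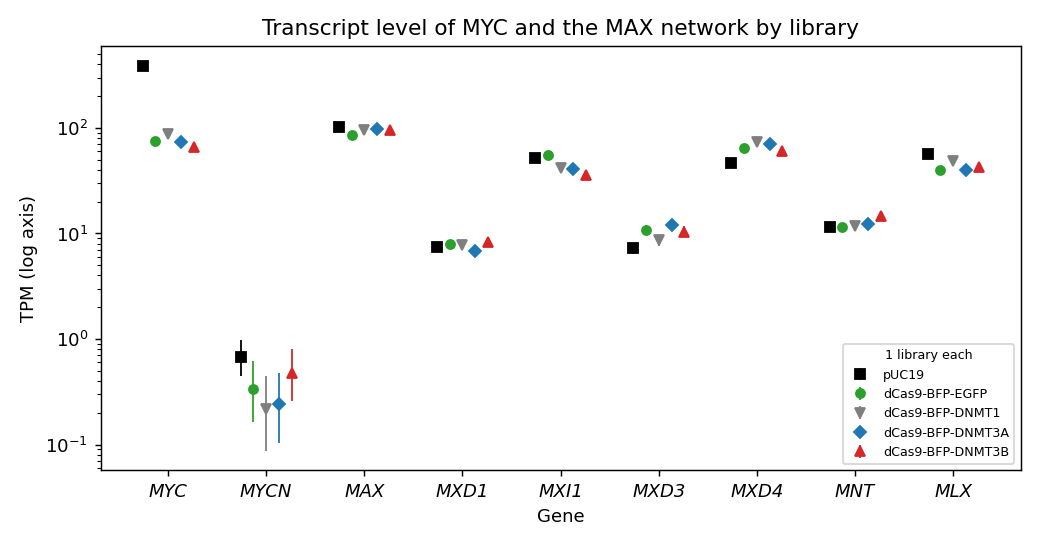
Level of each of the 9 genes in each library, in TPM on a log axis, with 1 library per symbol and bars for the 95% interval of the read count. MYC lies at 387 TPM in pUC19 and at 65.5 to 88.2 TPM in the 4 fusions, whereas the symbols of MAX, MXD1 and MNT lie close together.

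MYCN, the neuronal relative of MYC with the same MAX partner, was close to the limit of these libraries (chromosome 2, 16080672 to 16087129, plus strand). It had 28 reads in pUC19, 10 with EGFP, 7 with DNMT1, 8 with DNMT3A and 14 with DNMT3B, or 0.216 to 0.672 TPM. Its mean of 0.389 TPM was below the minimum for the counts of genes past a fold, and the interval of its log2 ratio ran from -3.07 to -0.41 for DNMT1 and from -1.54 to 0.48 for DNMT3B. MYCN was lower than in pUC19 in all 4 fusions, but the intervals for EGFP and DNMT3B included 0.

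MAX, the obligate partner of MYC and a partner of the repressors, was nearly level across the libraries (chromosome 14, 65472892 to 65569413, minus strand). It was at 101 TPM in pUC19, 85.3 TPM with EGFP, 95.9 TPM with DNMT1, 98.6 TPM with DNMT3A and 94.7 TPM with DNMT3B. The 5 libraries spanned only 1.19-fold. The log2 ratio to pUC19 was lowest for EGFP, at -0.25 (-0.33 to -0.17), and lay between -0.10 and -0.04 for the other 3 fusions, where that of DNMT1 turned from -0.08 to 0.05 when TMM-scaled reads replaced TPM. In the annotation, 16.08% of the exon bases of MAX are shared with genes on the opposite strand, chiefly FNTB, and strand was not stated for the counting.

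The 5 repressor genes did not move together. MXD4 and MXD3 were above pUC19 in all 4 fusions. MXI1 was below it in the DNMT1, DNMT3A and DNMT3B fusions, and MXD1 and MNT differed little. None of the 5 reached a 2-fold difference.

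MXD4 encodes a MAX-binding repressor of differentiated cells (chromosome 4, 2249159 to 2263836, minus strand). Its level was 46.7 TPM in pUC19, 64.4 TPM with EGFP, 74.4 TPM with DNMT1, 69.7 TPM with DNMT3A and 60.5 TPM with DNMT3B. All 4 fusion libraries were above the control, with log2 ratios of 0.46 (0.39 to 0.54), 0.67 (0.60 to 0.74), 0.58 (0.50 to 0.65) and 0.37 (0.29 to 0.45) in the same order. MXD4 was below MLX and MXI1 in pUC19 and above both in every fusion library. With the DNMT3A and DNMT3B fusions its 95% interval overlapped that of MYC, at 67.4 to 72.1 against 70.8 to 76.9 TPM and at 58.2 to 62.9 against 62.4 to 68.6 TPM.

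MXD3, a repressor linked to the S phase of the cell cycle, lies on chromosome 5 (176728462 to 176739758, minus strand). It was at 7.21 TPM in pUC19, 10.8 TPM with EGFP, 8.59 TPM with DNMT1, 12.0 TPM with DNMT3A and 10.4 TPM with DNMT3B. The log2 ratios were 0.58 (0.36 to 0.81), 0.25 (0.01 to 0.49), 0.73 (0.52 to 0.96) and 0.53 (0.30 to 0.77). Of its 4743 exon bases over all annotated transcripts, 43.73% are shared with PRELID1 on the opposite strand or RAB24 on the same strand. The shared part of the 2662-base transcript used for counting was not measured, so how far its counts are affected is not known.

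MXI1, a MAX-binding repressor also known as a candidate tumour suppressor, split the libraries in another way (chromosome 10, 111967363 to 112047123, plus strand). Its level was 52.3 TPM in pUC19 and 54.9 TPM with EGFP, but 41.8 TPM with DNMT1, 41.2 TPM with DNMT3A and 36.1 TPM with DNMT3B. The 3 libraries with a DNMT domain were all below the other 2. The paper describes the DNMT1 fusion, like the EGFP fusion, as lacking de novo methylation activity. Against the EGFP fusion the log2 ratio was -0.39 (-0.49 to -0.30) for DNMT1, -0.42 (-0.51 to -0.32) for DNMT3A and -0.60 (-0.70 to -0.51) for DNMT3B. A trend with GC content split the libraries in the same way. Across 10130 genes with a mean of at least 5 TPM, Spearman's rho between transcript GC content and the log2 ratio to the EGFP fusion was 0.351, 0.325 and 0.280 for these 3 fusions and -0.065 for pUC19, and the MXI1 transcript, at 43.7% GC, was at percentile 34.9 of GC content. Genes are not independent replicates, so rho is a description, and the part of GC content in the MXI1 difference was not tested.

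MXD1 and MNT, the repressor induced on differentiation and the broadly expressed repressor of the family, were low and steady. MXD1 (chromosome 2, 70124820 to 70170077, plus strand) was at 7.42 TPM in pUC19, 8.02 TPM with EGFP, 7.73 TPM with DNMT1, 6.89 TPM with DNMT3A and 8.30 TPM with DNMT3B. All its intervals against pUC19 included 0. MNT (chromosome 17, 2287367 to 2304398, minus strand) was at 11.5, 11.4, 11.8, 12.3 and 14.7 TPM in the same order. The DNMT3B library alone stood above the others, with a log2 ratio of 0.34 (0.21 to 0.49) to pUC19 and of 0.35 (0.20 to 0.51) to the EGFP fusion.

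MLX, the partner that links the network to the Mondo proteins, was lower in all 4 fusions (chromosome 17, 40719090 to 40725257, plus strand). It was at 57.2 TPM in pUC19, 40.3 TPM with EGFP, 49.1 TPM with DNMT1, 40.0 TPM with DNMT3A and 42.5 TPM with DNMT3B. The log2 ratios were -0.50 (-0.61 to -0.40), -0.22 (-0.32 to -0.13), -0.52 (-0.61 to -0.42) and -0.43 (-0.53 to -0.33). The DNMT1 library was nearest to the control. PSMC3IP, on the opposite strand, shares 18.21% of the exon bases of MLX.

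Of the 8 genes with a mean of at least 1 TPM, 1 was lower by 2-fold or more in each fusion, and it was MYC each time. Among all 13906 such genes, 4.13% were lower by that much with EGFP, 4.88% with DNMT1, 6.11% with DNMT3A and 5.38% with DNMT3B, and 1.52% were lower in all 4. None of the 8 was higher by 2-fold, where the shares among all genes were 3.58% with EGFP, 2.06% with DNMT1, 5.88% with DNMT3A and 6.16% with DNMT3B, and 0.805% in all 4. The other 7 genes had log2 ratios between -0.53 and 0.73. The median log2 ratio of the 8 was 0.03, -0.02, -0.07 and 0.03 for EGFP, DNMT1, DNMT3A and DNMT3B, beside -0.004, -0.14, -0.02 and -0.01 over all genes. In the DNMT1 fusion the split of all genes past 2-fold depended on scaling, with 678 lower and 287 higher by TPM and 444 lower and 363 higher by TMM-scaled reads, which moved the median of all genes from -0.14 to -0.01.

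The make-up of the network followed MYC. The 9 genes summed to 671 TPM in pUC19 and to 351, 378, 355 and 333 TPM with EGFP, DNMT1, DNMT3A and DNMT3B. MYC made up 57.6% of the sum in pUC19 and 21.5%, 23.3%, 20.8% and 19.6% in the fusions. The ratio of MYC to MAX was 3.82 in pUC19 and 0.885, 0.919, 0.748 and 0.691 in the fusions. The 5 repressor genes together were at 125 TPM in pUC19 and at 130 to 150 TPM in the fusions. MYC was thus at 3.09 times the summed repressors in pUC19, and at 0.505, 0.611, 0.519 and 0.503 times them in the fusions. These are ratios of transcripts per length, and protein levels were not measured.

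In pUC19 the order of levels was MYC, MAX, MLX, MXI1, MXD4, MNT, MXD1, MXD3 and MYCN. The intervals of MXD1 and MXD3, at 6.866 to 8.004 and 6.424 to 8.064 TPM, overlapped. In the fusions the order began with MAX, MYC and MXD4. MXI1 and MLX came next in an order that varied, then MNT, MXD3, MXD1 and MYCN.

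The promoters of the network genes were searched for the E-box that its own dimers bind. The windows ran from 250 bases before to 50 after each RefSeq start site and were available for 8 of the 9 genes, in 11 windows. MYC was the gene without a window, so its promoter was not searched. The motif CACGTG, a palindrome that reads alike on both strands, was in 3 of the 11 (27.3%), in MLX, MNT and MXD4. It was in 2548 of 35116 windows over all genes (7.26%). All sites found in the windows are printed below. A link between the motif and the levels was not tested.

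Each site is printed with up to 12 bases on either side, on the strand of its gene, with the E-box in capitals. The sequences are from the RefSeq promoter table (GRCh38) and were placed on GRCh37 by an exact match of the whole window. The MLX site is at chr17:40719056-40719085 (plus strand), 50 bases before the start, the MNT site at chr17:2304530-2304559 (minus strand), 193 bases before the start, and the MXD4 site at chr4:2264057-2264086 (minus strand), 238 bases before the start.
MLX: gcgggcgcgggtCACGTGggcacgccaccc
MNT: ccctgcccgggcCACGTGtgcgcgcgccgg
MXD4: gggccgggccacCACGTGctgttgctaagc
The sites belong to a gene that was lower in all 4 fusions (MLX), a gene near its control level outside the DNMT3B fusion (MNT) and a gene that was higher in all 4 (MXD4). A match is a description of these letters and does not show binding.

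The genes with ratios most like those of MYC were found by the Euclidean distance between the 4 log2 ratios to pUC19, among 10929 genes with a mean of at least 5 TPM. The nearest was IRS4, an adaptor of insulin and growth factor receptors, at a distance of 0.315. It was at 396 TPM in pUC19 and at 68.2, 76.5, 70.5 and 66.3 TPM with EGFP, DNMT1, DNMT3A and DNMT3B, almost the levels of MYC itself. EIF3J-AS1 (0.509), the carbonic anhydrase gene CA2 (0.620), the splicing factor gene HNRNPL (0.703) and ATXN7L3B (0.712) followed. HNRNPL was at 655 TPM in pUC19 and at 144 to 189 TPM in the fusions. EIF3J-AS1 is an antisense gene, and without strand in the counting, reads of a stretch shared with the opposite strand cannot be told apart. Its overlap was not measured. All 4 ratios share the pUC19 library, so likeness over them is a description.

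Genes around the network were described in lists chosen with earlier results of these data known. Over all genes, between 2.06% and 6.16% passed 2-fold per fusion and direction, as given above. Of the 9 measured partners of related factors, 0 were lower by 2-fold in any fusion, and TFE3 was higher by 2-fold in 2 of them. TFE3, a lysosomal and metabolic regulator that binds E-box-like motifs, was at 37.1 TPM in pUC19 and at 71.5, 71.5, 87.0 and 88.5 TPM in the fusions. MYCL, the third MYC gene, was at 7.68 TPM in pUC19 and at 4.53 to 5.26 TPM in the fusions. MLXIPL, the Mondo protein ChREBP, was at 11.4 TPM in pUC19 and at 6.87 to 7.91 TPM in the fusions. Both MYCL and MLXIPL were below the control in all 4 fusions without reaching 2-fold.

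Of 13 cofactors of MYC, 2 were higher by 2-fold with the DNMT3A and DNMT3B fusions and none was lower. Over all genes, 5.88% and 6.16% were higher by that much with these fusions. CDK9, the kinase that releases paused RNA polymerase II, was at 50.9 TPM in pUC19 and at 95.4, 72.8, 111 and 121 TPM in the fusions. ZBTB17, which encodes MIZ1, the factor through which MYC represses genes, was at 22.6 TPM in pUC19 and at 32.9, 34.2, 55.9 and 52.9 TPM. RUVBL1, a helicase subunit of chromatin complexes that MYC recruits, lay the other way, at 297 TPM in pUC19 and 174 to 203 TPM in the fusions. Among 11 genes of MYC turnover none passed 2-fold. The one farthest from pUC19 was SKP2, a ubiquitin ligase subunit, at 104 TPM in pUC19 and 60.6 to 68.6 TPM in the fusions.

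Of 13 genes of the SIN3 and histone deacetylase corepressor, none was higher by 2-fold. In all 4 fusions 1 was lower by 2-fold, beside 1.52% of all genes. It was RBBP7, a histone-binding subunit, at 549 TPM in pUC19 and at 220, 223, 257 and 243 TPM in the fusions. SAP30, a SIN3-associated subunit, was at 32.9 TPM in pUC19 and at 18.6 to 23.0 TPM in the fusions. ING1, another subunit, was at 11.8 TPM and at 12.7 to 20.7 TPM. The list's median log2 ratio lay between -0.15 and -0.04, and turned to 0.09 for DNMT1 with TMM-scaled reads.

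Of 26 genes described as induced by MYC, 15 were below pUC19 in all 4 fusions and 3 were above it in all 4. Over all genes, 32.7% were below in all 4 and 23.7% above by TPM, and 30.2% and 27.8% by TMM-scaled reads, which left the list at 15 and 3. The list's median log2 ratio was -0.38 with EGFP, -0.40 with DNMT1, -0.43 with DNMT3A and -0.42 with DNMT3B. In the same order, 1, 2, 2 and 2 of the 26 were lower by 2-fold and 1, 0, 2 and 2 higher, and none passed 2-fold in all 4. The gene lower by 2-fold with EGFP was EIF4A1, named after its values were seen and close to the minimum level. It was at 1.39 TPM in pUC19 and 0.514 TPM with EGFP, but at 2.26 to 2.57 TPM in the other fusions. LDHA, lactate dehydrogenase A of glycolysis, was at 1073 TPM in pUC19 and at 563, 499, 449 and 456 TPM in the fusions. Others lay above pUC19. E2F2, a transcription factor of S phase entry, was at 31.7 TPM in pUC19 and at 69.2, 40.6, 103 and 94.6 TPM in the fusions. CDC25A, the phosphatase that activates cyclin-dependent kinases, was at 137 TPM and at 248, 170, 317 and 318 TPM.

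Of 12 genes described as repressed by MYC, 10 had a mean of at least 1 TPM. In all 4 fusions 6 of these were above pUC19 and 1 below by TPM, beside 23.7% and 32.7% of all genes. With TMM-scaled reads 7 were above and 1 below, beside 27.8% and 30.2% of all genes. The list's median log2 ratio by TPM was 0.59, 0.57, 0.54 and 0.64 in the order used above. In that order, 3, 3, 2 and 2 of the list were higher by 2-fold, beside 3.58%, 2.06%, 5.88% and 6.16% of all genes. Lower by 2-fold were 1, 1, 0 and 0, beside 4.13%, 4.88%, 6.11% and 5.38% of all genes. CDKN1A, the cyclin-dependent kinase inhibitor p21, was the gene past 2-fold in all 4, at 20.1 TPM in pUC19 and 42.7, 43.8, 53.7 and 65.0 TPM in the fusions. DDIT3, the stress factor CHOP, was at 29.9 TPM in pUC19 and at 113, 78.7, 54.4 and 49.1 TPM. CLU, the chaperone clusterin, was at 3.27 TPM and at 5.29, 11.7, 6.15 and 7.64 TPM. NDRG1, named after its values were seen, was the gene below the control, at 71.5 TPM in pUC19 and 29.9 to 40.7 TPM in the fusions.

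Of 5 measured targets of MLX and the Mondo proteins, 4 were below pUC19 in all 4 fusions and 1 above. Over all genes, 32.7% were below in all 4 and 23.7% above. The gene above was TXNIP, the glucose-responsive inhibitor of thioredoxin, at 44.7 TPM in pUC19 and 94.2, 62.4, 79.4 and 73.0 TPM in the fusions, past 2-fold with EGFP. Its relative ARRDC4 lay the other way, at 31.0 TPM in pUC19 and 16.1 to 25.6 TPM in the fusions. ACACA, acetyl-CoA carboxylase of fatty acid synthesis, was at 29.5 TPM and at 15.2 to 22.7 TPM. Of 9 regulators of MYC transcription or RNA, NOTCH1 alone was higher by 2-fold, with DNMT3A, at 8.95 TPM in pUC19 and 18.0 TPM. CTCF, the insulator protein, was at 82.6 TPM in pUC19 and 91.8 to 142 TPM in the fusions. HNRNPK, an RNA-binding protein that also binds the MYC promoter, was at 921 TPM and at 573 to 746 TPM.

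A test was possible only for a comparison without pUC19. The libraries of DNMT3A and DNMT3B, which methylate DNA de novo, were set against those of DNMT1 and EGFP with edgeR's quasi-likelihood test and Benjamini-Hochberg adjustment. The 2 libraries of an arm are different constructs and not replicates, so the spread in the fit contains the differences between constructs. MYC was lower in both DNMT3A and DNMT3B libraries than in the other 2, with means of 69.6 and 81.8 TPM. The log2 fold change was -0.29 ± 0.15 (SE), with an edgeR adjusted p of 0.241. MXI1 also did not overlap between the arms, with means of 38.6 and 48.3 TPM, a log2 fold change of -0.37 ± 0.15 and an edgeR adjusted p of 0.137. MNT was higher in both libraries of the first arm, with means of 13.5 and 11.6 TPM, at 0.15 ± 0.16 and an edgeR adjusted p of 0.556. The arms overlapped for the other 6 genes. Of the 9 genes, 2 were thus lower and 1 higher without overlap, beside 24.2% and 33.3% of the 15309 genes tested, so that a lack of overlap was common. With an offset for GC content in the fit, the log2 fold change of MNT went from 0.15 to 0.01, that of MXD3 from 0.17 to 0.01 and that of MXI1 from -0.37 to -0.32, while MYC stayed near its value, at -0.30. By adjusted p, 4.15% of all genes were called lower and 6.91% higher in the DNMT3A and DNMT3B libraries.

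None of the 9 genes passed an edgeR adjusted p of 0.05, DESeq2 called 0 of the 8 it gave an adjusted p, and 1 gene, MXI1, had an unadjusted p under 0.05 (0.033). Of the 15309 genes tested, 4415 had an unadjusted edgeR p under 0.05. The median log2 fold change was -0.11 over the 9 genes and -0.01 over all genes. Leaving out a library of the second arm leaves that arm with 1 library, which is then assumed to vary as DNMT3A and DNMT3B do, so the spread in the fit comes from those 2 libraries alone. Under that assumption, without the EGFP library the log2 fold change of MYC was -0.46 (edgeR adjusted p = 0.00894) and that of MLX -0.37 (0.0442), and without the DNMT1 library that of MXI1 was -0.49 (edgeR adjusted p = 0.012). Over all alternatives the adjusted p ranged from 0.00894 to 0.727 for MYC, from 0.012 to 0.616 for MXI1 and from 0.0442 to 0.841 for MLX.

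**Figure D2:**
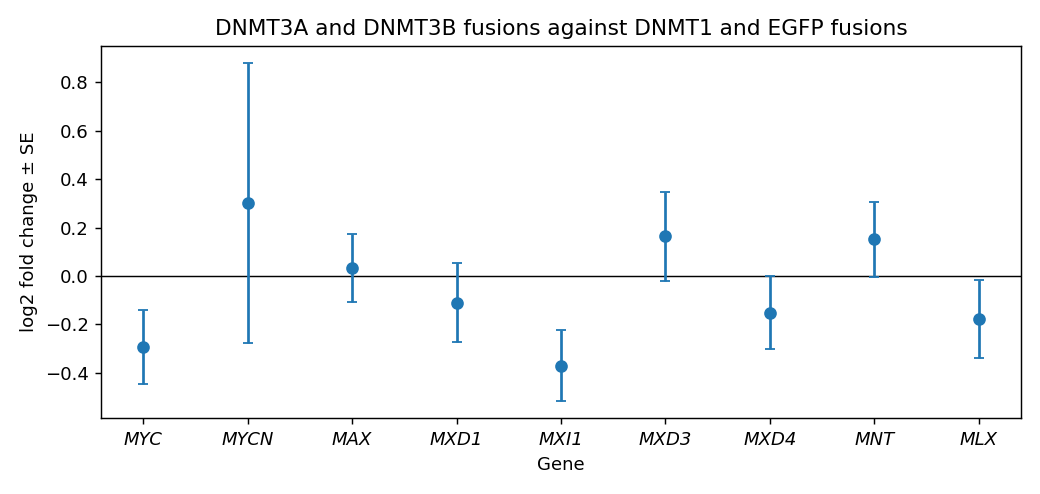
log2 fold change between the DNMT3A and DNMT3B libraries and the DNMT1 and EGFP libraries for the 9 genes. Bars are the standard error derived from the F statistic of the edgeR test. MXI1 at -0.37 and MYC at -0.29 lie farthest below 0, MYCN has the widest bar, and none of the 9 passed the adjusted threshold.

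Over all lists, 13 of 98 genes were called in the same fit, and over all genes 11.1%. Of the 26 genes described as induced by MYC, 6 were called, of which 3 rose and 3 fell in the DNMT3A and DNMT3B libraries. An unadjusted edgeR p under 0.05 was found for 10 of the 26, beside 4415 of the 15309 genes tested. TERT, the catalytic subunit of telomerase, was at 9.65 and 10.4 TPM there against 3.38 TPM with DNMT1 and 3.97 TPM with EGFP, and rose by 1.39 ± 0.18 on the log2 scale (edgeR adjusted p = 0.00485). E2F2 rose by 0.81 ± 0.19 (edgeR adjusted p = 0.0283), and SHMT2, a mitochondrial enzyme of serine metabolism, fell by 0.65 ± 0.11 (edgeR adjusted p = 0.0108). Of the 12 genes described as repressed by MYC, CEBPA, a differentiation factor, rose by 0.91 ± 0.15 and DDIT3 fell by 0.93 ± 0.17 (edgeR adjusted p of 0.0102 and 0.0111).

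In the other lists, ZBTB17 was the call among 13 cofactors, at 0.64 ± 0.14 (edgeR adjusted p = 0.0229). AXIN1, a scaffold of MYC degradation, was the call among 11 turnover genes, at 0.69 ± 0.12 (edgeR adjusted p = 0.0115). SAP130 was the call among 13 corepressor genes, at 0.43 ± 0.11 (edgeR adjusted p = 0.0438), ACACA among 5 Mondo targets, at -0.55 ± 0.13 (edgeR adjusted p = 0.0298), and FUBP1, which binds upstream of MYC, among 9 regulators, at 0.73 ± 0.13 (edgeR adjusted p = 0.012). No call was made among the 9 partners. Of these, 2 had an unadjusted edgeR p under 0.05, beside 4415 of the 15309 genes tested. The 10 list genes named here kept the direction of their log2 fold change whichever library was left out. SAP130 was at 0.47 without DNMT3A and 0.38 without DNMT3B, and ACACA at -0.49 and -0.61. A fit with 1 library left out takes its spread from the 2 libraries of the other arm alone. Whether these genes passed the threshold depended on which arm lost a library. The calls of SAP130 and ACACA were lost without the filter on low counts, at edgeR adjusted p of 0.0573 and 0.0518.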

How the data were processed

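Libraries were read on an Ion Proton sequencer. Before alignment the authors removed reads shorter than 30 nt, of low quality or with adaptor, aligned the rest with tmap to hg19 (GRCh37) RefSeq RNA with up to 3 mismatches and kept unique alignments. The tmap version was not given in the sources used here. The deposited read count per gene is raw and unnormalized. The deposited TPM values equal counts per length scaled to a fixed sum per library. The deposited coverage is a percent of each transcript. Genes without a row were set to 0, and 36 rows without a symbol were left out. Near-identical genes lose reads under unique mapping.

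The 9 genes and all lists were chosen with earlier results of these data known. Named were the 9 genes, the 5 nearest to MYC, PLAU and, per list, up to 3 genes with the largest mean ratio at a mean of at least 5 TPM and up to 3 edgeR calls with the smallest p. Ratios used a pseudocount of 0.1 TPM. Genes past 2-fold were counted at a mean of at least 1 TPM. Intervals are 95% exact intervals of counts, and of ratios the exact conditional binomial interval. edgeR 4.0.16 (R 4.3.3) was run on counts with TMM and filterByExpr, at an adjusted p under 0.05. The code was run on simulated replicates with less spread than these libraries and with large changes. That run does not show how the fit behaves on these libraries. The edgeR test returns no SE, so each SE was derived as the absolute log2 fold change over the square root of the F statistic. With 1 sample per construct, p-values measure only the spread between these libraries. Alternatives were a pseudocount of 1 TPM, TMM-scaled reads, TPM without the DNMT rows, other minimum levels, DESeq2 1.42.0, no filter, size factors by median ratio and the omission of each library. A loess offset on GC content, for 90.68% of genes tested, was added after seeing the data. Positions and exon overlaps are from GENCODE v44 on GRCh37. The overlaps are shares of the exons of all annotated transcripts of a gene, not of the RefSeq transcript used for counting.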

Additional observations from a re-analysis of the deposited data

How the results depend on the processing

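No paired analysis was possible because each group has 1 library and the labels give no replicate numbers. MYC stayed past 2-fold in all 4 fusions under a pseudocount of 1 TPM, TPM without the DNMT rows and TMM-scaled reads, and its log2 ratio for DNMT1 moved to -2.004 under the last. Genes past 2-fold, 1072, 965, 1667 and 1604 for EGFP, DNMT1, DNMT3A and DNMT3B, became 677 and 591 for the first 2 with a pseudocount of 1 TPM, 602, 472, 1030 and 989 at a mean of at least 5 TPM, and 2422, 2337, 3072 and 3008 with no minimum level, where MYCN joined MYC to give 2 of the 9 genes for DNMT1 and for DNMT3A. By reads, not per length, MYC made up 52.3% of the network in pUC19 and 17.4%, 19.2%, 17.1% and 16.1% in the fusions. In the edgeR comparison of the fusions, genes past the threshold went from 1694 to 1072 with no filter, to 2153 with DESeq2 and to 2013 with the GC offset, and ranged from 18 (without DNMT3A) and 54 (without DNMT3B) to 3519 (without DNMT1) and 3864 (without EGFP) as 1 library was left out. Of the 9 genes, 0 to 2 passed in those fits. The cause of these shifts was not tested. A fit with 1 library left out takes its spread from the 2 libraries of the intact arm alone. As 1 library was left out, the log2 fold change changed sign for 5 genes, none of them called with all libraries, and ranged from -0.237 to 0.722 for MYCN, -0.109 to 0.195 for MAX, -0.240 to 0.014 for MXD1, -0.311 to 0.033 for MXD4 and -0.371 to 0.048 for MLX. Of the other single-gene values under alternatives, 212 kept their direction and side, 22 lost and 3 gained a call, and 4, all for DNMT1 against pUC19 with TMM-scaled reads, moved beyond their counting interval: MAX turned to 0.05, and MXI1, MXD4 and MLX kept their direction. Depth limits MYCN, at 7 to 28 reads, more than any other of the 9 genes.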
